A study of Mus musculus with 5 samples.

Results

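Hematopoietic cells were looked for among 5 single-cell RNA libraries of GFP+ cells sorted from mouse hindlimb muscle, and were taken as the cells with at least 3 UMIs each of Tyrobp and Fcer1g. A UMI (unique molecular identifier) marks 1 captured transcript. Cells were eligible when they held 350 to 8000 detected genes, under 20% of UMIs on mitochondrial genes and at least 1000 UMIs. Of 34439 barcodes 29831 were eligible, and 127 of these met the rule (0.426%, exact binomial 95% interval 0.355 to 0.506%). These 127 cells are called Tyrobp+ cells here, and the other eligible cells of the same library served for comparison.

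The study asked how mesenchymal progenitors of skeletal muscle respond to bone injury. Every library came from Prx1Cre;mTmG mice on a C57Bl/6 background, males or females of 10 to 14 weeks, and pooled the sorted cells of 2 animals. In these mice the Prx1 promoter, active in limb mesenchyme, drives Cre, and recombined cells switch from membrane tdTomato to membrane GFP, so that the sort selects mesenchymal cells and their progeny and is meant to leave blood cells out. SC3 held cells of uninjured muscle (d0), SC4 cells of d3 post-fracture (non-stabilized tibial fracture) and SC10 cells of d5 post-polytrauma (fracture with injury of the adjacent muscle). SC5 is labelled d5 post-fracture and SC9 is labelled d3 post-polytrauma, but the cell numbers that the study lists for its conditions fit SC5 as d3 post-polytrauma and SC9 as d5 post-fracture. Both are therefore called by their library names, and no difference between injuries or days is read from them. Each condition has 1 library, so no test between conditions was possible and no p-value is given, and all intervals below are 95% intervals that cover counting error only. Libraries held 18247307 UMIs in SC3, 100403837 in SC4, 103780343 in SC5, 56084145 in SC9 and 204474562 in SC10. SC9 and SC10 shared 944 barcodes, 47.2% of those of SC9, and the 3 pairs among SC3, SC4 and SC5 shared 405 to 525, whereas no barcode was a Tyrobp+ cell in both libraries of any pair.

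Tyrobp (also called DAP12) and Fcer1g (the Fc receptor gamma chain) are short membrane adaptors of myeloid and natural killer cells. They have no ligand of their own but pair with activating receptors such as Trem2 and the Fc gamma receptors, and after ligand binding their ITAM motifs are phosphorylated by Src family kinases and recruit the kinase Syk. In injured muscle and bone, monocytes and macrophages with these receptors clear debris and dead cells, and osteoclasts need the same adaptors to form.

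Starting sequences of genes that carry these adaptors and the myeloid programme are shown to let the transcripts counted below be placed on the genome, with the letters AGGAAG or their reverse complement CTTCCT in capitals. These letters are the core of purine-rich elements known to be bound by the myeloid factor encoded by Spi1. Windows run from 250 bases before to 50 bases after an annotated start, are from RefSeq (GRCm38.p6) and are written 5′ to 3′ on the strand of the gene. Fcer1g encodes the adaptor itself (chr1:171234300-171234599, minus strand), Lyz2 the lysozyme of phagocytes (chr10:117282223-117282522, minus strand), Ctss the lysosomal protease cathepsin S (chr3:95526536-95526835, plus strand) and Spp1 the secreted phosphoprotein osteopontin (chr5:104434861-104435160, plus strand).
Fcer1g: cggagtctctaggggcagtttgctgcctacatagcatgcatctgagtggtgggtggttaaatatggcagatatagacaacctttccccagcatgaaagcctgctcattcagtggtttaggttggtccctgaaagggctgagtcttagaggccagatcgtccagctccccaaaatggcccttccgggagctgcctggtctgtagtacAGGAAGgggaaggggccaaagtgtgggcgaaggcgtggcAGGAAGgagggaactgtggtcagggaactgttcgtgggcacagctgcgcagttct
Lyz2: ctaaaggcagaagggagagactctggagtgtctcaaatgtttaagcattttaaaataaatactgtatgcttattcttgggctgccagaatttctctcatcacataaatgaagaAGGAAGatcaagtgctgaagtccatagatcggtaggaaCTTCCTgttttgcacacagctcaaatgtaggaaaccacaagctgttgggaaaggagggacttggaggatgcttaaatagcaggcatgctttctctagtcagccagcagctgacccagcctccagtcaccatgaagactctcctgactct
Ctss: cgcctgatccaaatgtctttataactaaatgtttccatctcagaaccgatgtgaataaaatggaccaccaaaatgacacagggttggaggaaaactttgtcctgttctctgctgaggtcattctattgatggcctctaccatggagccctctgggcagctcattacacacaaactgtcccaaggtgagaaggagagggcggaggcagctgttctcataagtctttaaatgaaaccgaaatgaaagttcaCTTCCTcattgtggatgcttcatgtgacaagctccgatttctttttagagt
Spp1: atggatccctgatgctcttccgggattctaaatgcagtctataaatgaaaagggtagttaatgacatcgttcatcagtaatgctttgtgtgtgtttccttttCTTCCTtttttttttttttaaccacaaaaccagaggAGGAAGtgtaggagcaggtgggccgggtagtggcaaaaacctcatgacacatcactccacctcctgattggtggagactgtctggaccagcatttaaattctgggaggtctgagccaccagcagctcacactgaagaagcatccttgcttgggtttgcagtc
The letters occurred 2 times in the Fcer1g window, 2 times in the Lyz2 window, 1 time in the Ctss window and 2 times in this Spp1 window. Among the 25 genes with the highest ratio in SC5 described below, 21 had a window and 14 of these held the letters (66.7%). Of all 32851 windows of this length 11613 held them (35.4%), as did 10383 of 27025 genes (38.4%) in at least 1 window, and 3 of the 8 matched among the 12 genes with the lowest ratio (37.5%). The 25 genes were picked by their ratio in these data and include Fcer1g, which chose the cells, so no difference is read from these shares. A match of letters describes the sequence and says nothing of binding in these cells.

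Most Tyrobp+ cells came from SC5. They numbered 4 of 4632 eligible cells in SC3 (0.0864%, 0.0235 to 0.221%), 16 of 5589 in SC4 (0.286%, 0.164 to 0.464%), 85 of 6201 in SC5 (1.37%, 1.10 to 1.69%), 1 of 1468 in SC9 (0.0681%, 0.00172 to 0.379%) and 21 of 11941 in SC10 (0.176%, 0.109 to 0.269%). SC5 gave 66.9% of all Tyrobp+ cells, and its interval lay above those of the other libraries. Without SC5 there were 42 in 23630 eligible cells (0.178%, 0.128 to 0.240%), and 41 without SC5 and SC9. With 1 library per condition the sort, the animals and the injury cannot be told apart.

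**Figure D1:**
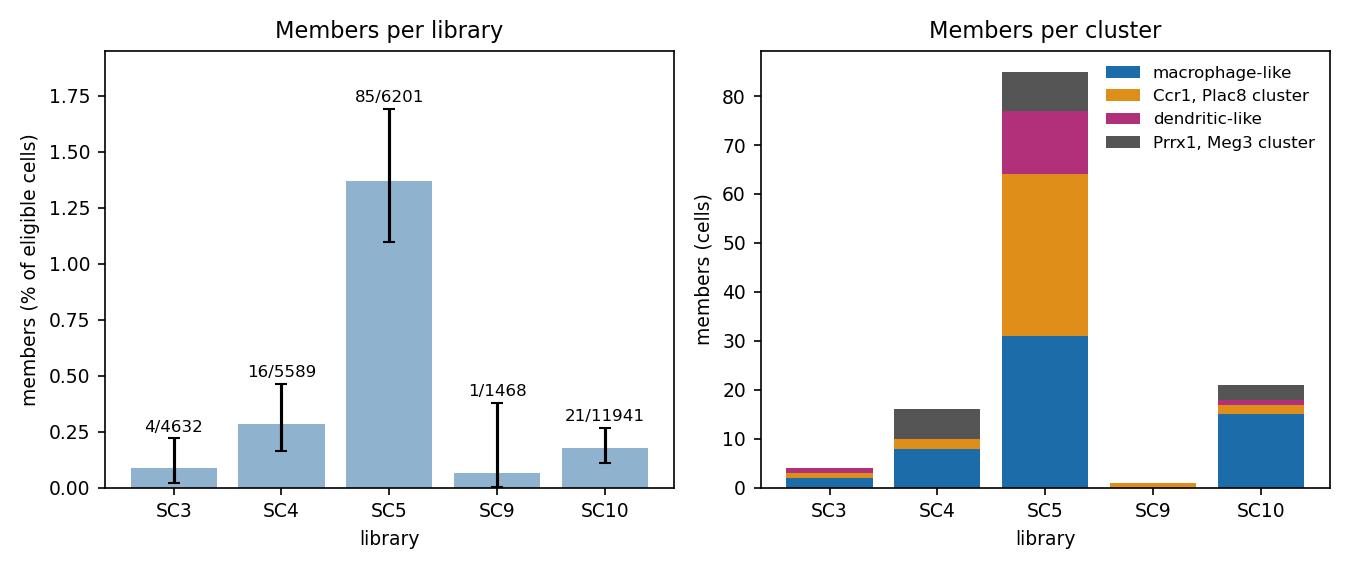
Left, Tyrobp+ cells as percent of eligible cells in each library, with exact binomial 95% intervals and the counts above the bars, and SC5 highest at 1.37%. Right, the number of Tyrobp+ cells per library, coloured by the 4 clusters described in the text, with the Ccr1, Plac8 cluster and the dendritic-like cells mostly in SC5.

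The 2 chosen transcripts set these cells well apart from the rest. Summed over cells, Tyrobp was at 2119 CPM (counts per 1000000 UMIs) in SC3, 1315 in SC4, 2537 in SC5, 3974 in SC9 and 1733 in SC10, against 0.386 to 2.49 CPM in the other cells. Tyrobp lies on chr7:30413760-30417585 (GRCm38, GENCODE M21), and its UMIs per Tyrobp+ cell had a median of 12 and reached 53, with a median of 11 and a maximum of 43 for Fcer1g. Near the threshold, 13 Tyrobp+ cells had exactly 3 UMIs of either gene and 3 had exactly 3 of both. Just outside it, the lower of both counts was 2 in 16 eligible cells and 1 in 29, and 60 cells reached 3 UMIs of only 1 gene. The cells were chosen by these counts of Tyrobp and Fcer1g, which are given as a description.

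Genes that the rule did not use fitted the label of hematopoietic cells. Lyz2, the lysozyme of macrophages and neutrophils, was at 8478 CPM in SC3, 5950 in SC4, 6160 in SC5, 11922 in SC9 and 6328 in SC10, with 2.19 to 5.15 CPM in the other cells, and had a UMI in 114 of 127 Tyrobp+ cells. Ptprc, which encodes the leukocyte antigen CD45, was at 289 CPM in SC3, 97.9 in SC4, 119 in SC5, 353 in SC9 and 138 in SC10, with 0.0501 to 0.154 in the other cells. It had a UMI in only 65 of the 127, whose median depth was 4212 UMIs. Over the 12 leukocyte genes listed, among them Coro1a, Cd53 and Cd52, 126 of 127 cells had at least 2 UMIs and 125 at least 5. The lowest count was 1 UMI, which alone does not show expression. By library, these 12 genes summed to 1944 to 17132 CPM in the Tyrobp+ cells and 31.4 to 61.5 CPM in the other cells. Single genes such as Ptprc, Spi1 (69 cells) and Csf1r (71 cells) had no UMI in many Tyrobp+ cells.

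Cd74 and the other genes of MHC class II, which present antigen to helper T cells, were uneven between libraries. Cd74, the invariant chain, was at 26108 CPM in SC3, 1972 in SC4, 9491 in SC5, 88.3 in SC9 and 1305 in SC10, against 1.21 to 7.29 CPM in the other cells. A UMI of Cd74 was seen in 4 of 4 Tyrobp+ cells of SC3, 6 of 16 of SC4, 57 of 85 of SC5, the 1 cell of SC9 and 9 of 21 of SC10. The high values thus lay in SC3 and SC5, and the level of SC3 rests on 4 cells with 10380 UMIs in all.

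Free RNA in the droplets gives UMIs to cells that do not express a gene. With each cell thinned to 1000 UMIs, 83.5% of the Tyrobp+ cells of SC5 had a Lyz2 UMI against 0.638% of the other cells, and for Cd74 51.8% against 0.180%. For Tyrobp the shares were 91.8% and 0.376%, a contrast that the rule fixed. The other cells were deeper, with a median of 15785 UMIs in SC5 against 3973 in its Tyrobp+ cells. A wider background was seen for 2 genes that the mesenchymal cells also hold. Spp1 had a UMI in 48.2% of thinned Tyrobp+ cells and 11.8% of the other cells, and Lgals3, which encodes galectin-3, in 90.6% against 24.9%.

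Tyrobp+ cells were shallower than the rest of their library. Median UMIs were 2525.5 against 3641 in SC3, 4837 against 17994 in SC4, 3973 against 15785 in SC5, 11324 against 34950 in SC9 and 6862 against 15765.5 in SC10. Detected genes had a median of 1340 in the Tyrobp+ cells of SC5 and 3155 in the other cells, while the mitochondrial share was 2.52% and 2.14%. Ranges overlapped, since 14 Tyrobp+ cells over the 5 libraries lay above the median of their library's other cells.

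Raw UMIs of the reporter separated 2 kinds of Tyrobp+ cells. In 111 cells there were at most 3 EGFP UMIs, 70 of them with none, and EGFP was at 101 CPM over all of them, against 2579 CPM in the other cells, 98.9% of which had an EGFP UMI. The remaining 16 cells, 5 of SC4, 8 of SC5 and 3 of SC10, had 6 to 152 EGFP UMIs and 2271 CPM. No Tyrobp+ cell had 4 or 5 UMIs. Scaled by the depth of each cell, EGFP ran from 464 to 3594 CPM in the 16 and from 0 to 1048 CPM in the 111, so these ranges overlapped. Depth differed too, with a median of 19038.5 UMIs in the 16 cells and 3950 in the 111, and 8 of the 111 held more UMIs than the shallowest of the 16, which had 8984. No comparison of both kinds at matched depth was made.

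The 16 EGFP+ cells carried mesenchymal transcripts beside the myeloid ones. The 15 listed mesenchymal genes, collagens, Sparc, Dcn and Prrx1 among them, made 1.80% of their UMIs, over 1% in 14 of 16 cells and 0.447% in the lowest. In the 111 cells the share was 0.110%, with no cell over 1% and 0.791% in the highest, and in the other cells 3.55%. Prrx1, the gene whose promoter drives the Cre, had a UMI in 11 of the 16 and 2 of the 111. Col1a1, the chain of type I collagen, had a UMI in 16 of 16, with a median of 86.5 UMIs, and in 54 of the 111. Tyrobp, which chose the cells, had a median of 12 UMIs in both kinds, and Lyz2 had 53 UMIs in the 16 and 23 in the 111. These are raw counts from cells of unlike depth. As CPM, Lyz2 was at 2823 in the cluster of the 16 and 1 other cell. In the other clusters described below it was at 9206, 11592 and 297 CPM. The 12 leukocyte genes had 10 to 61 UMIs in each of the 16. Transcripts of both programmes were thus counted under 1 barcode. Scrublet doublet scores were among the highest of the library in 4 of these 16, all of SC5, and in 0 of the 111. Of the other cells 5.81% in SC4, 6.80% in SC5 and 10.7% in SC10 had such scores. Scrublet's own calls marked 0 of the Tyrobp+ cells and were taken as not having worked. Whether the 16 barcodes held 2 cells was not tested.

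Of the genes given by library, 10 are set out here for SC4, where the EGFP+ cells were 5 of 16, with their levels without these cells. Lyz2 was then at 14538 CPM in SC4 in place of 5950, Apoe at 17339 in place of 6496 and Ftl1 at 41826 in place of 19592. Cd74 was at 4566 CPM there in place of 1972, Lgals3 at 2647 in place of 1203 and Spp1 at 1566 in place of 874. The receptors Trem2 and Csf1r were at 618 and 551.5 CPM in place of 245 and 189, Ptprc at 265 in place of 97.9 and Spi1 at 66.2 in place of 35.0. Not all sums moved so, since the 10 osteoclast genes were at 176 CPM in SC4 in place of 182 and at 1356 in SC10 in place of 999, and the stromal ligands at 1039 CPM in SC5 in place of 2433 and at 9442 in SC4 in place of 5244. The order of libraries changed for Apoe, which was then at 5137 CPM in SC5 and 7425 in SC10 and so highest in SC4. Trem2 was then at 311 CPM in SC5 and 605 in SC10. The latter is close to the 618 CPM of SC4, so no order of SC4 and SC10 is read for Trem2. Levels by library in the other paragraphs are over all Tyrobp+ cells unless stated.

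**Figure D2:**
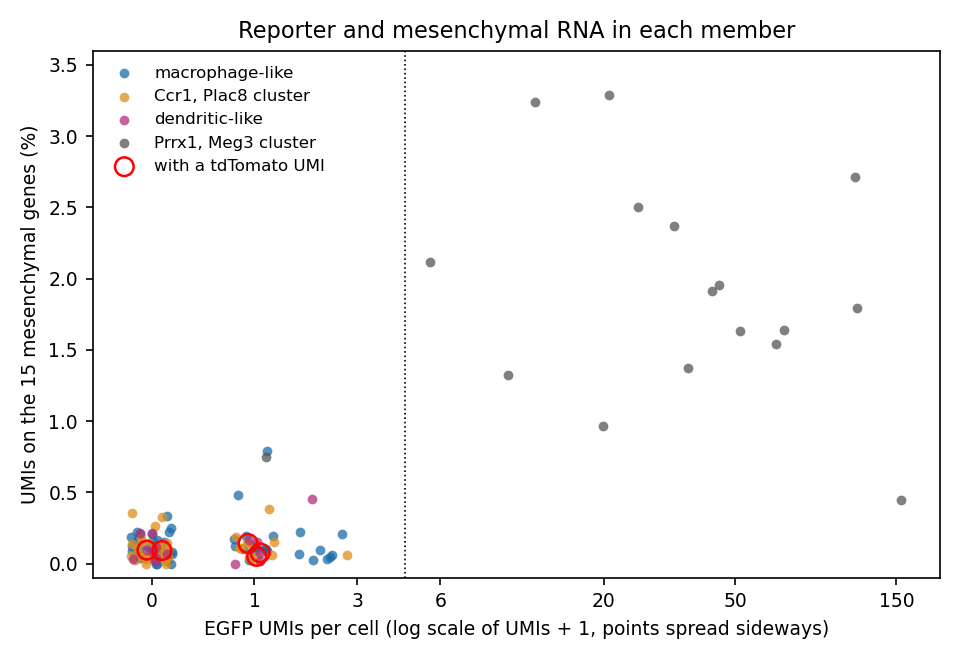
Each point is a Tyrobp+ cell, placed by its EGFP UMIs (horizontal, log scale of UMIs + 1, points spread sideways) and its percent of UMIs on the 15 mesenchymal genes (vertical), coloured by cluster, with a red ring where a tdTomato UMI was counted. The 16 cells to the right of the dotted line lie between 0.447% and 3.29%, and none of the 5 ringed cells is among them.

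The unrecombined reporter was rarely seen. tdTomato had 8 UMIs over all barcodes, and 5 of 127 Tyrobp+ cells had a UMI (3.94%, 1.29 to 8.95%), against 1 of 29704 other eligible cells (0.00337%, 8.52e-05 to 0.0188%). Of these 5 cells SC5 gave 2 and SC4, SC9 and SC10 gave 1 each, and all 5 were among the 111 with few EGFP UMIs.

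Genes were next compared within SC5 and within SC10, as summed UMIs of Tyrobp+ cells against all other cells of the library. A gene was called where it differed at least 4-fold with its interval also past 4-fold, with 1 UMI added to each sum. Genes with under 20 UMIs in both sums together were not compared, so a gene nearly absent from the other cells entered only where the Tyrobp+ cells held it. The rule for choosing cells bears on this contrast too, so the counts, also those by gene list below, are a description and support nothing. In SC5 498 of 14003 genes were called higher (3.56%) and 6 lower (0.0428%). Without the EGFP+ cells 586 of 14000 were higher (4.19%) and 207 lower (1.48%). In SC10 434 of 15349 were higher (2.83%) and 36 lower (0.235%), and without the EGFP+ cells 460 of 15339 were higher (3.00%) and 168 lower (1.10%). The EGFP+ cells, which held 36.4% of the UMIs of the Tyrobp+ cells of SC5, thus bore mainly on the genes called lower. The median log2 ratio over all genes was 0.49 in SC5 and 0.74 in SC10, above 0 since the added UMI weighs more in the smaller sum.

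The genes furthest above the other cells in SC5 included Cd74, H2-Aa, Ctss and the chains of C1q. Cd74 was 9491 CPM against 2.40 CPM (log2 ratio 11.94, 11.76 to 12.14), and H2-Aa, the alpha chain of an MHC class II molecule, 2808 against 0.768 CPM (log2 ratio 11.82). Ctss, the cathepsin that trims the invariant chain, was 1480 against 0.477 CPM (log2 ratio 11.57, 11.18 to 12.05) and had a UMI in 80 of 85 cells. C1qc, C1qa and C1qb, the chains of the first complement component, had log2 ratios of 11.18, 10.61 and 10.30 but UMIs in only 30 to 33 of the 85 cells. Il1b, the cytokine interleukin-1 beta, was at 346 against 0.165 CPM (log2 ratio 10.96) from 16 cells. Some of these genes were thus spread over nearly all cells and others were held by a minority.

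Others among the 25 highest were Clec4a2, Pld4, Cd53, Ms4a7, Cd300c2, Ccl6, Cytip, Cd52, H2-Eb1, Lyz2, Aif1, C5ar1, Ly6c2, Fcer1g, Spi1, Mpeg1, Ms4a6c and Trem2, with log2 ratios of 10.16 to 11.22. All of them are known from myeloid or lymphoid cells. In SC10 these 25 genes had log2 ratios of 8.78 to 13.03, the highest for C1qa and the lowest for H2-Eb1, although Ly6c2, a monocyte gene, had too few UMIs there for a comparison.

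Transcripts with the highest levels included ferritin and cytoskeletal genes. Ftl1, the ferritin light chain, was at 12717 CPM in SC3, 19592 in SC4, 26748 in SC5, 6800 in SC9 and 15874 in SC10, and at 6031, 3835, 5188, 1690 and 2285 CPM in the other cells. It was called higher in SC5 (log2 ratio 2.37, 2.34 to 2.39). Fth1, the heavy chain, had a log2 ratio of 1.84 and Tmsb4x, which binds actin monomers, of 3.02. Eef1a1, Vim and S100a6 were among the 20 highest levels as well, but with log2 ratios of -0.57, -0.52 and -0.72, and Malat1 had 0.69.

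**Figure D3:**
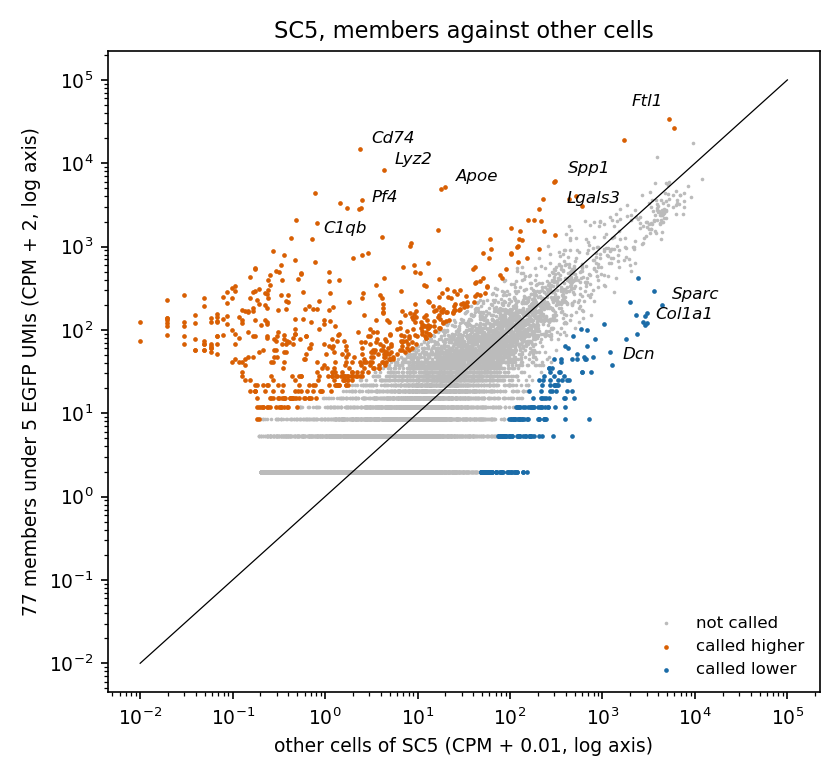
Each point is a gene in SC5, with its level in the other cells (horizontal, CPM + 0.01, log axis) and in the 77 Tyrobp+ cells with under 5 EGFP UMIs (vertical, CPM + 2, log axis), orange where called higher, blue where called lower, and a line of equal values. Cd74 and Lyz2 lie far above the line and Col1a1, Sparc and Dcn below it, while most genes were not called.

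Few genes were called lower in SC5 when all 85 cells were summed. The 6 were Igfbp4 (log2 ratio -2.76), Thbs4 (-2.79), Aspn (-2.84), Prg4 (-2.89), Rarres2 (-3.49) and Fmod. Fmod, which encodes the collagen-binding proteoglycan fibromodulin, had 0 UMIs against 32.6 CPM and was at least 5.22-fold lower, from a floor of 3 UMIs over the 85 cells. None of the 15 mesenchymal genes was called lower, but 10 of 15 were without the EGFP+ cells. Col1a1 was then 111 against 2856 CPM (log2 ratio -4.64), Sparc 197 against 4375 (-4.45), Dcn 36.1 against 1273 (-5.02) and Prrx1 3.28 against 182 (-4.80). In SC10, where all 21 cells were summed, 6 of 15 were called lower, Col1a1 at 1943 against 9932 CPM among them.

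Summed over cells, mesenchymal genes made 0.541% of the UMIs of Tyrobp+ cells and 1.71% of the other cells in SC5, and 0.814% against 4.06% in SC10. The median cell gave 0.0922% in SC5 and 0.177% in SC10. Sums were thus carried by few cells, the EGFP+ ones.

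ITAM adaptors and the receptors that pair with them were mostly called higher where they could be compared. Of 16 genes in the matrix 11 had enough UMIs in SC5 and 7 in SC10. Without Tyrobp and Fcer1g, which chose the cells, 9 of 9 were called higher in SC5 and 4 of 5 in SC10, where Oscar was not, beside 3.56% and 2.83% of all genes. These shares are also the background of the list counts that follow. The 5 genes not compared in SC5, Trem3, Clec5a, Cd300lb, Oscar and Pira2, had 0 to 15 UMIs in its Tyrobp+ cells. Trem2, a receptor for lipids and lipoproteins, was at 96.3 CPM in SC3, 245 in SC4, 221 in SC5, 0 in SC9 and 520 in SC10, with at most 0.185 CPM in the other cells. Fc receptors for immunoglobulin G were also among them, with Fcgr3 at a log2 ratio of 9.02 and Fcgr1 at 11.57 in SC5. Clec4d, a lectin that senses mycobacterial lipid, had 9.20 and was found in 55 of 85 cells.

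Kinases downstream followed. All 7 genes compared of the ITAM signalling list were called higher in SC5 and 6 of 6 in SC10. Syk itself was at 47.9 against 0.652 CPM in SC5 (log2 ratio 6.24, 5.45 to 6.90) and 75.5 against 0.970 CPM in SC10 (6.35). Lyn, a Src family kinase, was at 161 against 4.10 CPM in SC5 (5.30). Inhibitory receptors, which recruit phosphatases through ITIM motifs, were listed together with such phosphatases. Of the genes compared in this list, 5 of 6 were called higher in SC5 and 8 of 8 in SC10. Sirpa, the receptor of the signal CD47, was the exception in SC5, with 73.0 against 13.7 CPM (2.45, 1.89 to 2.90), and was called in SC10 (3.72). Without the EGFP+ cells it was called in SC5 too, which made 6 of 6. Genes of both arms of this signalling system were thus found in these cells.

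MHC class II, complement and oxidase genes gave similar counts. The list named MHC class II also holds Ciita, Cd86, Cd80 and Cd40, which are not class II chains. They are included wherever MHC class II genes are counted or given as a percent, here and below. Called higher in SC5 were 9 of 9 MHC class II genes, 8 of 10 complement genes and 6 of 7 subunits or partners of the NADPH oxidase, and in SC10 6 of 8, 8 of 10 and 7 of 7. C3 and Cfb, complement proteins that stromal cells also make, were not called, with log2 ratios of -1.55 and -0.14 in SC5. Cybb, the catalytic subunit of the phagocyte oxidase, was at 104 against 0.0486 CPM in SC5 (10.83).

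Lysosome and lipid genes were higher in part, since the other cells also held many of them. In SC5 7 of 16 lysosome genes were called (median log2 ratio 2.18) and 10 of 16 without the EGFP+ cells, with 10 of 16 in SC10. Ctsb and Ctsd, proteases of the lysosome, had log2 ratios of 2.67 and 3.25, and Psap, the precursor of saposins, 3.59, whereas Cd63, Npc2 and Lamp2 had -1.24, 1.40 and 0.91. Of 12 lipid genes 9 were called in both libraries. Apoe, the main apolipoprotein of macrophages, was at 2890 CPM in SC3, 6496 in SC4, 3817 in SC5, 795 in SC9 and 6781 in SC10, against 12.3 to 242 CPM in the other cells. Its lowest level lay in SC9 with 1 cell, and in each library the Tyrobp+ cells lay above the rest.

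Genes for the uptake of dead cells were called in part. Of 13 efferocytosis genes compared, 3 were higher in SC5 and 4 in SC10, where 3.56% and 2.83% of all genes were. Those of SC5 were the scavenger receptors Stab1 (log2 ratio 6.41) and Cd36 (6.70) and the transglutaminase Tgm2 (4.21), and the median over the 13 was -0.03, under that of all genes. Mertk, a receptor of apoptotic cells, had a UMI in 1 of 85 cells of SC5 and 5 of 21 of SC10, where it was called (4.24). Axl, Gas6 and Mfge8, which the mesenchymal cells also express, had log2 ratios of -0.88, -1.10 and -1.52 in SC5.

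Spp1 and Lgals3 were called higher in both libraries. Spp1 was at 0 CPM in SC3, 874 in SC4, 4059 in SC5, 0 in SC9 and 7343 in SC10, and in the other cells at 8.21, 188, 308, 241 and 668 CPM. Lgals3 was at 482 CPM in SC3, 1203 in SC4, 4171 in SC5, 3002 in SC9 and 2484 in SC10, and in the other cells at 50.4, 171, 296, 188 and 95.3 CPM. Tyrobp+ cells lay above the other cells in SC4, SC5 and SC10 for both genes. For Spp1 the 4 cells of SC3 and the 1 cell of SC9 had no UMI, which with 10380 and 11324 UMIs allows up to 289 and 265 CPM.

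Receptors for stromal ligands and the ligands themselves were counted next. Of 10 receptors for ligands known from stroma, 8 were called higher in SC5 and 9 in SC10, while of 11 stromal ligands 0 were called higher in SC5 and 1, Ccl8, in SC10. Over all genes 3.56% were called higher in SC5 and 2.83% in SC10, so the counts of ligands say little. Csf1r, the receptor of the macrophage growth factor Csf1, was at 674 CPM in SC3, 189 in SC4, 169 in SC5, 177 in SC9 and 269 in SC10, against 0.810 to 1.38 CPM in the other cells. Csf1 itself was at 56.3 against 73.7 CPM in SC5. Ccr2, the receptor of Ccl2, had a log2 ratio of 11.55 in SC5 and Ccl2 one of -0.92 (1272 against 2412 CPM). Without the EGFP+ cells Ccl2 and Cxcl12 were called lower, with log2 ratios of -2.51 and -3.36, as were the receptor Il1rl1 (-3.99), Cxcl1 (-4.29) and Il6 (-4.64).

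Over all Tyrobp+ cells chemokines were called higher in part and none was called lower in SC5 or SC10. In SC5 8 of 16 were called higher, among them Ccl6 (838 against 0.418 CPM), Ccl3 (156 against 0.370), Ccl4 (254 against 0.331) and Ccl9 (588 against 51.5), in SC10 10 of 16. Without the EGFP+ cells 7 of 15 were higher and 2 lower in SC5, with a median log2 ratio of 0.81 in place of 1.98. Ccl7 and Cxcl2 were not called in SC5, at 744 against 1156 CPM and 857 against 690 CPM. Among cytokines 5 of 13 were called in SC5, namely Il1b, its receptor antagonist Il1rn (281 against 1.10 CPM), Tnf (10.4 against 0.185), Spp1 and Grn. In SC10 8 of 15 were called, with Osm, a cytokine of the IL-6 family, at 75.5 against 0.00990 CPM in 10 of 21 cells. Osm was nearly absent from the other cells and met the minimum of summed UMIs only through the Tyrobp+ cells. It could thus not have been called lower, and its call is a description.

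Among transcription factors, 6 of 14 were called higher in SC5, 8 of 14 without the EGFP+ cells, and 7 of 14 in SC10. Spi1, the master factor of myeloid cells, was at 193 CPM in SC3, 35.0 in SC4, 196 in SC5, 265 in SC9 and 378 in SC10. Irf8, a factor of monocytes and dendritic cells, had a log2 ratio of 6.36 in SC5, while Runx1 and Cebpd had -0.71 and -0.62. Interferon-stimulated genes were called for 3 of 12 in SC5, Isg15 (275 against 47.1 CPM), Irf7 (log2 ratio 2.67) and Rsad2 (47.9 against 2.70), and for 0 of 12 in SC10. This difference between libraries was not tested. Of the iron and heme genes 3 of 13 were called in SC5, Ftl1, the iron transporter Slc11a1 (7.29) and transferrin, Trf (3.65). Without the EGFP+ cells 4 of 13 were called in SC5, and over all Tyrobp+ cells 6 of 13 in SC10. Hmox1, heme oxygenase, was at 1634 against 430 CPM in SC5 (1.93) and 2023 against 135 in SC10, where it was called (3.91).

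Genes of glycolysis and cell division were not called. None of 11 glycolysis genes and none of 15 division genes was called in either direction in SC5 or SC10, with median log2 ratios of -0.05 and -0.35 in SC5. Without the EGFP+ cells none was called in SC5 either, but the medians were -0.52 and -2.07, and the division genes summed to 495 CPM against 1364 CPM in the other cells. With 3.56% of all genes called higher and 0.0428% lower in SC5, a count of 0 among so few genes says little. Division genes passed 0.3% of UMIs in 1 of the 77 Tyrobp+ cells of SC5 with few EGFP UMIs and 3 of the 18 of SC10, where 278 of their 375 UMIs lay in 2 cells. Mki67 was at 147 CPM in SC10, in 5 of 21 cells.

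Osteoclast genes were compared in both libraries. The 10 listed genes summed to 999 CPM in its Tyrobp+ cells and 280 CPM in the other cells, against 171 and 164 CPM in SC5, and 5 of 8 genes compared were called higher in SC10 and 1 of 4 in SC5, beside 2.83% and 3.56% of all genes. Both denominators come from the minimum of 20 UMIs, which Atp6v0d2 met in SC10 through the 20 UMIs of its Tyrobp+ cells, with 3 in the other cells. Acp5, tartrate-resistant acid phosphatase, was at 344 against 9.67 CPM in SC10 (log2 ratio 5.17), Atp6v0d2, a proton pump subunit, at 83.9 against 0.0149 CPM (12.12) and Tnfrsf11a, the receptor RANK, at 71.3 against 0.0891 CPM (9.65). A cell of 3597 UMIs with no EGFP UMI held 77 of the 238 osteoclast UMIs, among them 33 of 82 for Acp5 and 23 of 46 for the collagen-degrading protease Ctsk, and the next cell 66. Ctsk was not called, since the other cells of SC10 held it at 191 CPM. Calcr, the calcitonin receptor, had no UMI in any Tyrobp+ cell.

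The rule asks for adaptors of myeloid and NK cells and so leaves most other blood cells out, and the counts of their genes describe the chosen cells only. T and NK cell genes had 12 UMIs over all 127 cells, with Cd3d, Cd3e, Cd3g and Nkg7 at 0, mast cell genes 4, eosinophil genes 1 and erythroid genes 10. B cell genes had 43 UMIs, mostly Ighm, with Cd79a, Ms4a1 and Pax5 at 0. Pf4, a chemokine listed for platelets, was at 2091 CPM in SC5, but Gp9 and Gp1bb were at 0, and genes of muscle stem cells such as Pax7 and Myod1 were at 0. Neutrophil genes had 933 UMIs, of which 912 lay in 7 cells. In SC5 these were 4 cells of 1043 to 1474 UMIs with 7.37 to 18.3% of UMIs on neutrophil genes, in SC4 2 cells, both EGFP+, and in SC10 1 cell. S100a8 and S100a9 made most of them, whereas Ly6g, Ngp, Camp and Ltf had no UMI.

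Clustering of the 127 cells without Tyrobp and Fcer1g gave 4 clusters, also at a lower and a higher resolution. The leading genes below defined the clusters and are a description. The first, macrophage-like, had 56 cells, 2 of SC3, 8 of SC4, 31 of SC5 and 15 of SC10. Mrc1, the mannose receptor, led it with 365 CPM against 24.3 CPM in the other Tyrobp+ cells, followed by Cd36, Folr2, Cbr2 and Stab1. C1qb was at 2872 CPM and Pf4 at 5320, and 14 of 15 macrophage genes were detected. In the clusters described next this count was 11 in the second, 4 in the dendritic-like and 14 in the last. Macrophage genes made 1.08% of UMIs here and 0.531%, 0.0772% and 0.206% there. The listed genes with a UMI were highest here except Cd14 and Fcgr1. These were highest in the second cluster, at 2344 and 314 CPM against 551 and 166 here. Lyve1, a gene of some resident macrophages, had no UMI in any Tyrobp+ cell.

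The second cluster held 39 cells, 33 of them of SC5, and is called by Ccr1 and Plac8, which were among its 15 genes with the highest fold and were picked after their values were seen. Ccr1, a receptor of inflammatory chemokines, was at 558 CPM in 28 cells, Plac8 at 1486 CPM in 26 and Cd14, part of the endotoxin receptor, at 2344 CPM in 36. Plac8 does not mark this cluster alone, since it was at 1410 CPM in 13 of the 15 dendritic-like cells described next, where Ccr1 was at 59.4 CPM in 2. All 8 monocyte genes were detected and 35 of 39 cells had at least 2 UMIs of them, as had 36 of 56 macrophage-like cells, 14 of 15 dendritic-like cells and 14 of 17 cells of the last cluster. Monocyte genes made 0.369% of UMIs here, 0.279% in the dendritic-like cells, 0.0756% in the macrophage-like cells and 0.0268% in the last cluster. Ly6c2 was at 509 CPM in 19 cells here and at 757 CPM in 4 dendritic-like cells. The cluster was left without a cell type name, since S100a8 and S100a9, from 6 and 5 cells, stood among its 10 leading genes beside 1 monocyte gene, Chil3, with the monocyte genes Plac8 and Ms4a4c ranked after these 10. Its first gene by fold, Retnla, came from a single cell.

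The dendritic-like cluster had 15 cells, 13 of SC5, 1 of SC3 and 1 of SC10. Ccr7, which guides dendritic cells to lymph nodes, was at 1054 CPM in 8 cells and Cd209a, a lectin of dendritic cells, at 712 CPM in 11 cells, with 0 UMIs in the other 3 clusters and 0 among the other cells of all 5 libraries. Cd74 was at 44883 CPM, and MHC class II genes made a median of 10.6% of UMIs per cell (0.0628 to 13.3%), against medians of 0.027% in the macrophage-like cells and 0.431% in the Ccr1, Plac8 cluster. The cells lacked C1qa, C1qb, C1qc, Mrc1 and Trem2 (0 UMIs) and had Lyz2 at 297 CPM. Of the 9 listed dendritic genes 5 were detected in this cluster. Batf3 and Zbtb46, also listed, had 0 UMIs in it. Xcr1 and Clec9a, genes of cross-presenting dendritic cells, had no UMI in any Tyrobp+ cell.

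The last cluster, led by genes of several cells such as Prrx1 and Meg3, had 17 cells, the 16 EGFP+ cells and 1 cell of SC4 with 1 EGFP UMI. Prrx1 was at 194 CPM and Col1a1 at 3655 CPM, and Lyz2 at 2823 and Tyrobp at 745 CPM. Transcripts of mesenchymal and myeloid cells were thus counted together in it.

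**Figure D4:**
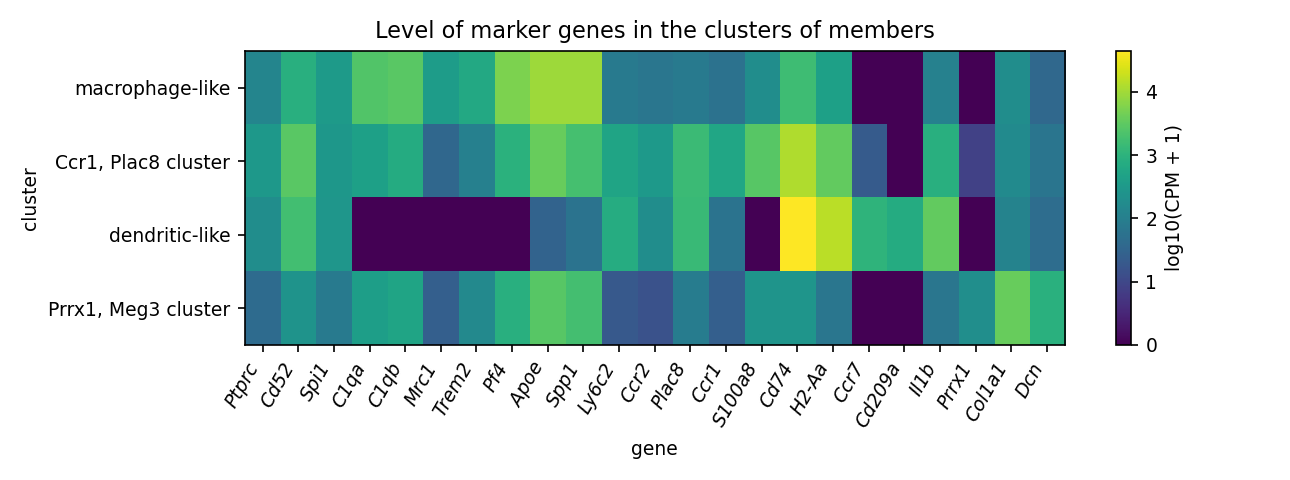
Colour gives the level of each gene (horizontal) in each cluster (vertical) as log10(CPM + 1) of summed UMIs. C1qa, C1qb, Mrc1 and Trem2 were at 0 in the dendritic-like cells, which have the highest Cd74, and Prrx1, Col1a1 and Dcn are highest in the Prrx1, Meg3 cluster.

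C1q and MHC class II genes were also counted per cell. At least 2 C1q UMIs were counted in 63 of 127 cells and at least 10 MHC class II UMIs in 49, with both in 18 and neither in 33. C1q was found in 45 of 56 macrophage-like cells, 9 of 39 cells of the Ccr1, Plac8 cluster and 0 of 15 dendritic-like cells. In the Prrx1, Meg3 cluster C1qa, C1qb and C1qc each had a UMI in 9 of 17 cells. Outside the dendritic-like cells MHC class II genes passed 1% of UMIs in 25 cells, 18 of the Ccr1, Plac8 cluster and 7 macrophage-like. After thinning to 1000 UMIs, the listed genes seen in nearest to 50% of Tyrobp+ cells were Ctsz and Plin2 (50.4% each), Spp1 and Ldha (49.6% each) and Ctsl (47.2%).

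The mix of clusters was described for 3 libraries. Macrophage-like cells made 8 of 16 Tyrobp+ cells in SC4 (24.7 to 75.3%), 36.5% in SC5 (26.3 to 47.6%) and 71.4% in SC10 (47.8 to 88.7%). The Ccr1, Plac8 cluster made 12.5% (1.55 to 38.3%), 38.8% (28.4 to 50.01%) and 9.52% (1.17 to 30.4%), and the dendritic-like cells 0% (up to 20.6%), 15.3% (8.40 to 24.7%) and 4.76% (0.120 to 23.8%). SC3 and SC9 had 4 cells and 1 cell, too few for a share. Genes that define the clusters also varied between libraries, so these shares describe the 3 libraries and no difference between them is read. A cluster mostly of SC5 may be particular to that library.

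Within the macrophage-like cells, Pf4, C1qb, Apoe and Ccl7 had their highest levels in SC4. Pf4 was at 11659 CPM in SC4 (10534 to 12873), 5777 in SC5 and 3428 in SC10, and C1qb at 6276, 2413 and 2497 CPM. Apoe was at 18471 CPM in SC4, 8635 in SC5 and 7844 in SC10, and the chemokine Ccl7 at 3420, 858 and 382 CPM. C3ar1, a complement receptor, was at 119, 238 and 325 CPM. With 8 cells in SC4, 1 cell gave 38.0% of the Pf4 UMIs and 41.7% of the C1qb UMIs there, but all 8 cells had both transcripts.

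Spp1, Fabp5 and Gpnmb had their lowest summed levels in SC4 and their highest in SC5. Spp1 was at 2022 CPM in the macrophage-like cells of SC4, 12205 in SC5 and 8818 in SC10, and Fabp5, a fatty acid binding protein, at 1309, 5984 and 4503 CPM. Gpnmb, a lysosomal membrane glycoprotein, had 0 UMIs in SC4 (upper Poisson limit 110 CPM), 843 CPM in SC5 and 577 in SC10. In SC10 a single cell gave 67.3% of the Spp1 UMIs, 78.4% of those of Fabp5 and 62.5% of those of Gpnmb, and the median cell had 887 CPM of Spp1, under the 1412 CPM of SC4 and the 4099 CPM of SC5. For SC10 the order thus rests on that cell. Trem2 had close values, 625, 628 and 649 CPM, with overlapping intervals.

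Acp5 was at 149 CPM in the macrophage-like cells of SC4, 115 in SC5 and 512 in SC10, and Nfatc1, the master factor of osteoclasts, at 0, 7.66 and 310 CPM. Lpl, lipoprotein lipase, was at 59.5, 192 and 686 CPM. These sums rest on few cells. Acp5 had a UMI in 1 of 8 cells in SC4, 8 of 31 in SC5 and 7 of 15 in SC10, where 1 cell gave 46.5% of its UMIs, and the median cell had none in each library. Nfatc1 had a UMI in 9 of 15 cells in SC10 and 1 of 31 in SC5, and in SC10 1 cell gave 46.5% of its UMIs. Lpl had 43.2% of its UMIs of SC10 in 1 cell.

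**Figure D5:**
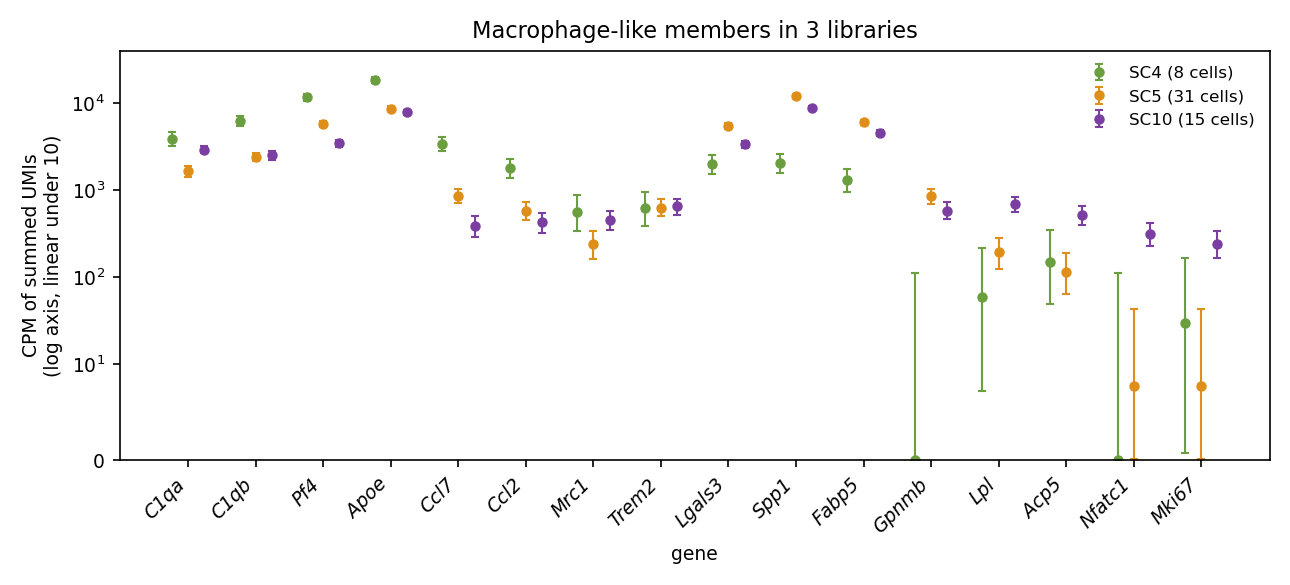
Level of 16 genes in the macrophage-like cells of SC4 (8 cells), SC5 (31) and SC10 (15), as CPM of summed UMIs (log axis, linear under 10) with exact Poisson 95% intervals. C1qb and Pf4 are highest in SC4, Spp1 and Gpnmb are lowest in SC4, and Nfatc1 is highest in SC10.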

How the data were processed

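Per the labels, GFP+ cells were sorted from skeletal muscle and libraries were made with Chromium 3′ chemistry. The authors aligned reads to mm10 with Cell Ranger (3.1.0 in the matrix headers, whereas the study's methods name a later version), and the submitters' processing notes also name Seurat 3.1.2. The authors deposited raw UMI counts per gene and barcode, with no normalization, for 31055 identifiers including EGFP and tdTomato, of which 30934 were found in GENCODE M21. Counting per strand and the split of reads between overlapping genes or near-identical copies could move single genes.

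Libraries were grouped by their labels, with SC5 and SC9 left unread as conditions. Tyrobp+ cells, gene lists and alternatives were chosen with earlier results of these data known. UMIs were summed over cells and divided by all UMIs (CPM). Genes with 20 or more UMIs in both sums together were compared, and called at 4-fold with the exact binomial 95% interval of the ratio past 4-fold. Levels have exact Poisson intervals. A level of 0 was bounded by 3 UMIs, except within the macrophage-like cells, where the upper limit of its Poisson interval was given. The text names, for SC5, the 25 highest ratios among genes with 100 UMIs or more. Only some are named of the 12 lowest ratios among these genes. The same holds for the 20 highest levels (without ribosomal, mitochondrial and predicted genes) and for genes of the lists. It also holds for the 15 list genes seen in nearest to 50% of cells thinned to 1000 UMIs. Genes called lower in SC5 and the leading genes of clusters were named after their values were seen. Clusters used 1000 variable genes, 20 principal components, 15 neighbours and Leiden resolution 0.5. Scrublet called 4 of 32547 cells (0.0123%), which was taken as not having worked, so no cell was removed and the highest scores, at 0.8% per 1000 cells, were marked instead. A split at 5 EGFP UMIs was set after the data were seen. The calling step was tested on simulated counts. Some genes of the lists are not reported here. Clec7a and Aldoa were not matched to a single row and have no value. Python 3.11.15, numpy 2.4.6, scipy 1.17.1, pandas 2.3.3, scanpy 1.11.5 and matplotlib 3.10.9 were used.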

Additional observations from a re-analysis of the deposited data

Results flagged for a closer look

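A UMI of tdTomato, the reporter of cells without Cre recombination and a transcript outside the main comparisons, was counted in 3.94% of Tyrobp+ cells (5 of 127), above the 0.00337% of the other eligible cells (1 of 29704). The 5 cells came from SC4, SC5, SC9 and SC10, had at most 3 EGFP UMIs each and lay in the macrophage-like, the dendritic-like and the Ccr1, Plac8 clusters. Only 8 tdTomato UMIs were counted over all barcodes, and why the transcript was so rare was not tested.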

How the results depend on the processing

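Of 109 values under alternatives 87 stayed within the limits set for them and 22 moved. At 2 UMIs each of Tyrobp and Fcer1g, the mesenchymal share was 0.688% in SC5 and 1.08% in SC10, and 3 and 17 genes were lower. With the highest Scrublet scores left out, that share was 0.326% in SC5 and 60 genes were lower. Requiring a UMI of Ptprc left 65 cells, 38 of SC5. As the mean over cells of each cell's share, called on fold alone, 2587 genes were higher and 782 lower in SC5, and 4321 and 625 in SC10. With no filter on summed UMIs 777 genes were higher in SC5, and with 100 UMIs or more 303 in SC5 and 279 in SC10, since fewer genes were compared. Chosen after seeing the data were leaving out the 16 EGFP+ cells, which gave 0.0882% and 207 genes lower in SC5 and 0.128% and 168 in SC10, leaving out SC5, which gave 42 cells with a median of 5895 UMIs, and leaving out SC5 and SC9, which gave 41. The median-of-ratios scaling shifted all log2 ratios by 0.0586 in SC5 and 0.134 in SC10. No paired analysis was possible because each condition has 1 library and no test was run, and no replicate could be left out. Depth limits single genes: in SC5 a gene with 0 UMIs over all Tyrobp+ cells may reach 6.25 CPM, in SC10 12.6, and in SC3 and SC9 289 and 265 CPM.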
